A study of Homo sapiens with 8 samples.

Results

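Transcripts of the claudin family were described in HepG2 cells, a human hepatocarcinoma cell line, after transfection with a plasmid for ectopic expression of GRHL2. The genes were taken by symbol from a list of 10 claudins (CLDN1, CLDN2, CLDN3, CLDN4, CLDN6, CLDN7, CLDN9, CLDN12, CLDN14 and CLDN15). Of these, 9 were found among the 17561 genes of the table, and CLDN7 was not analysed here. The cells received either pGRHL2, which carries EGFP and, driven by the EEF1A1 promoter, the GRHL2 cDNA with a flag tag, or pcDNA3, an expression plasmid without these elements, and were collected 48 h later. The effect of the GRHL2 insert and that of the other differences between the plasmids cannot be told apart. Each plasmid was represented by 4 libraries of this 1 cell line, which the study describes as independent replicates, and all cells were grown in the same medium with dexamethasone and insulin on gelatin-coated dishes. The study asked whether GRHL2 moves hepatocytes towards a cholangiocyte identity.

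Claudins are tetraspan membrane proteins that form the strands of the tight junction, the belt that closes the space between neighboring epithelial cells. Members that seal the space, such as CLDN1 and CLDN3, are distinguished from members that form paracellular channels, such as CLDN2 and CLDN15. In the liver, tight junctions separate the bile canaliculus from the blood side of the hepatocyte and also seal the bile duct epithelium. GRHL2 is a grainyhead-like transcription factor of epithelia, and claudin genes are among its known targets in other epithelial cells.

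Values are given on the log2 scale of the deposited table, which is per transcript length, and differences are given as log2 FC (pGRHL2/pcDNA3). Averaging the pGRHL2 and pcDNA3 value of 1 replicate number gave the same result for every number, in all 17561 genes. Libraries that share a number were accordingly taken as a pair, and the SD of the 4 pair differences follows each log2 FC. With values of this form, the groups of a gene do not overlap when all 4 pairs differ in the same direction. The GRHL2 values themselves lay between 6.61 and 7.25 with pcDNA3 and between 16.22 and 16.87 with pGRHL2. The library medians over all genes were 6.71 to 6.73. By RT-qPCR, however, the study found little or no GRHL2 in its cell lines under basal conditions. The values with pcDNA3 are therefore not read as a basal GRHL2 level, and the reason for the difference was not tested. The 8 hepatocyte markers examined (such as ALB and APOA1) had mean levels of 9.83 to 17.11, and 0 of them were called at a limma adjusted p under 0.05, as against 2.19% of all genes. The same count was 0 for the 5 cholangiocyte markers (mean levels -1.07 to 13.9), for 2 of 4 listed fibroblast markers (5.08 to 5.82) and for 2 of 3 listed endothelial markers (1.91 to 5.43). The log2 FC ran from 0.01 to 0.19 for the cholangiocyte markers (highest KRT7, adjusted p = 0.097 by limma). For the hepatocyte markers it ran from -0.07 to 0.28 (highest FGB, adjusted p = 0.249 by limma). The 3 leukocyte markers were not analysed here. Sequencing depth was unknown.

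The promoters of the 4 claudins with the highest levels are shown because these genes carried over 92% of the summed claudin level and included both genes with the largest differences. Each line gives the 250 bases before the transcription start (RefSeq, GRCh38.p14), and capitals mark the letters GGGCGG on either strand, a GC box.
CLDN1, chr3:190322447-190322696, minus strand: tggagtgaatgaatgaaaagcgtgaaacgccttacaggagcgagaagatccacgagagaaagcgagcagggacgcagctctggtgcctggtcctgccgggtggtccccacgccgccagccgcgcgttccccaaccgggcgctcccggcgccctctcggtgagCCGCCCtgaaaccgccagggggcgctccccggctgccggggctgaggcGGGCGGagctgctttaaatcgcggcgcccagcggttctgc
CLDN4, chr7:73830746-73830995, plus strand: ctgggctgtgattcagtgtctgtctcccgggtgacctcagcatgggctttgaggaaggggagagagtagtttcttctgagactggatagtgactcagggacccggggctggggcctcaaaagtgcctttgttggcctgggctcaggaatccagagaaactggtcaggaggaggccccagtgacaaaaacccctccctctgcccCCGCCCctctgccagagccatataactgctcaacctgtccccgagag
CLDN6, chr16:3018184-3018433, minus strand: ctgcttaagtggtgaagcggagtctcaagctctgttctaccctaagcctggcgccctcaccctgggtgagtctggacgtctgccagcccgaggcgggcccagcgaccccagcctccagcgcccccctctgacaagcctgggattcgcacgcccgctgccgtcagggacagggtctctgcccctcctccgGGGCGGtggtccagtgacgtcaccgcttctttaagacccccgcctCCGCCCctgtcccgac
CLDN12, chr7:90403211-90403460, plus strand: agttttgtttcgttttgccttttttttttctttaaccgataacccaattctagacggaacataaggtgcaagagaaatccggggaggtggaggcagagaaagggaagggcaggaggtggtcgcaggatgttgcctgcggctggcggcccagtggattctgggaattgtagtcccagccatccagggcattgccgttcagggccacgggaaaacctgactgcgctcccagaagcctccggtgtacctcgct

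The letters AACCGGTT, the best-known grainyhead core, and the looser form AACNNGTT were searched on both strands, and every match of the first is also a match of the second. Neither was present in the 11 promoter windows of the 8 claudins with an entry (CLDN9 had no entry). Among 35116 promoters of the same length, 0.12% held AACCGGTT and 3.0% held AACNNGTT. TATAAA was in 0 of the 11 windows and in 10.72% of all promoters, while GGGCGG was in 5 of 11 windows and in 42.64% of all promoters. The CLDN1 window had a GC content of 68.8% with 28 CpG dinucleotides, and the CLDN6 window had 68.0% with 18. The CLDN4 window had 58.8% GC with 4 CpG, and the CLDN12 window had 54.4% with 12, while the median over all promoters was 58.0% GC and 11 CpG. The ratio of observed to expected CpG was thus lower for CLDN4 (0.185) than for CLDN1 (0.948), with a median of 0.558 over all promoters.

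Within 5000 bases of the canonical start on either side (hg38, GENCODE release 44), AACNNGTT was present for 7 of the 9 claudins and for 75.7% of 17537 genes. CLDN1 had 4 matches, CLDN2 had 3, and CLDN3, CLDN4, CLDN6, CLDN9 and CLDN15 had 1 each, while CLDN12 and CLDN14 had 0. The matches of the neighboring CLDN6 and CLDN9 are the same site. The median over all genes was 1 match. AACCGGTT was present for 0 of the 9 claudins and for 2.3% of genes. These matches describe letters in the genome, and binding of GRHL2 was not measured in these libraries.

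The claudins of HepG2 cells fell into a group with high and a group with low transcript levels. CLDN1, CLDN6, CLDN12, CLDN4 and CLDN15 had mean levels between 8.01 and 10.44, whereas CLDN9, CLDN2, CLDN3 and CLDN14 lay between 2.63 and 4.76. CLDN1, the main sealing claudin of hepatocytes, ranked first with a level above that of 91.2% of all genes. It was followed by CLDN6, an oncofetal claudin (88.9% of genes were lower), and by CLDN12, a claudin without the usual scaffold-binding end (87.3%). CLDN4, a claudin of ducts and other simple epithelia, ranked next with 83.2% of genes lower. The channel-forming CLDN15 was above 63.2% of genes, and CLDN14, a barrier claudin of the inner ear, was above 22.2%.

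In this order the libraries of most neighbors did not overlap in level. The exceptions were CLDN6 and CLDN12, which were 0.13 apart with pcDNA3 and 0.20 apart with pGRHL2, and CLDN9 and CLDN2, which were 0.08 and 0.14 apart. Both pairs overlapped under both plasmids. The spread between libraries is understated here, because the pair means had been made equal before deposit.

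The order among the 4 highest genes depended on the transcript length used for scaling. The deposited values use a mean length over transcripts. In GENCODE release 44 this mean is 1174.1 bases for CLDN12, although its canonical transcript has 3533 bases. The authors averaged Ensembl transcript lengths that were not available here, so the rescaled levels are approximate. When the canonical length was used instead, the level was 9.96 for CLDN4, 9.94 for CLDN6, 9.61 for CLDN1 and 8.38 for CLDN12. CLDN4 thus moved from rank 4 to rank 1, and CLDN1 moved from rank 1 to rank 3. The gap between CLDN4 and CLDN6 was smaller than their SDs over pcDNA3 libraries (0.07 and 0.13), so their order was not resolved. The ranks of the 5 lower genes, CLDN15, CLDN9, CLDN2, CLDN3 and CLDN14, were the same with both lengths. Differences between plasmids do not depend on this choice.

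**Figure D1:**
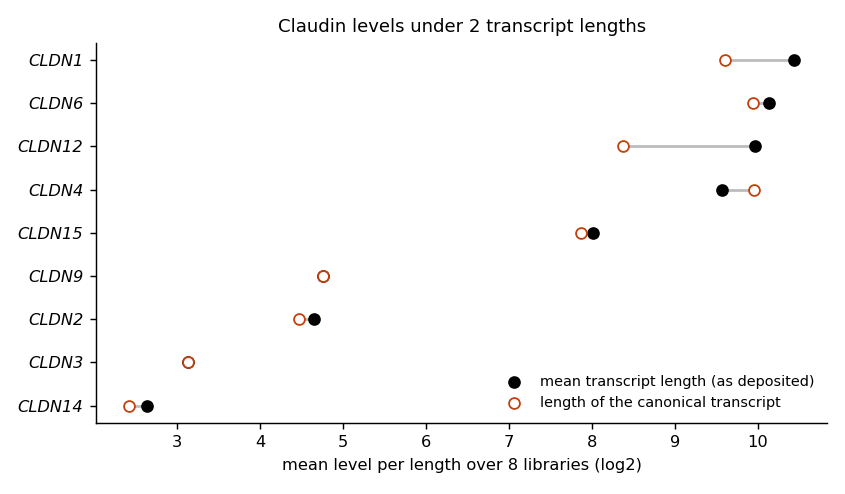
Mean level of each of the 9 claudins over the 8 libraries (x axis, log2 per length), scaled by the mean transcript length as deposited (filled points) or by the canonical transcript length (open points). The largest shift is that of CLDN12, from 9.97 to 8.38, and CLDN4 moves up from 9.57 to 9.96.

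On the linear scale, 4 genes made up between 92.5% and 93.3% of the summed level of the 9 claudins in every library. CLDN1 took 29.4% ± 1.6 (SD, n = 4) of the sum with pcDNA3 and 30.9% ± 1.7 with pGRHL2. CLDN6 took 25.1% ± 1.4 and 23.8% ± 1.4. CLDN12 took 22.9% ± 0.44 and 20.7% ± 0.4, and CLDN4 took 15.3% ± 0.56 and 17.7% ± 0.65. CLDN15 took 5.78% and 5.43%, and the 4 lowest genes together took 1.4% to 1.5%. The summed level changed by -0.033 ± 0.12 (log2, SD, n = 4 pairs) and was higher with pGRHL2 in 2 of 4 pairs. These shares follow the deposited lengths and are given as a description without a test. Because the pair means were equal, the SDs of the shares understate the spread between libraries and are not independent between the plasmids.

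None of the 9 claudins was called between pGRHL2 and pcDNA3 at a limma adjusted p under 0.05 (Benjamini-Hochberg over all genes). In the same fit 2.19% of all genes were called, 1.69% as higher and 0.501% as lower. At an unadjusted p under 0.05, 1 claudin was higher and 1 was lower (2 of 9), whereas 9.17% of all genes were higher and 6.78% lower at that level, 16.0% in all. The log2 FC was positive for 3 claudins and negative for 6, with a range of -0.18 to 0.17 and a median of -0.041, while the median of all genes was 0.0017. The 95% intervals of the 9 differences reached from -0.33 to 0.32, so that larger changes lay outside the interval of each claudin on this scale. The authors' rlog transformation pulls weakly expressed genes towards no difference.

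**Figure D2:**
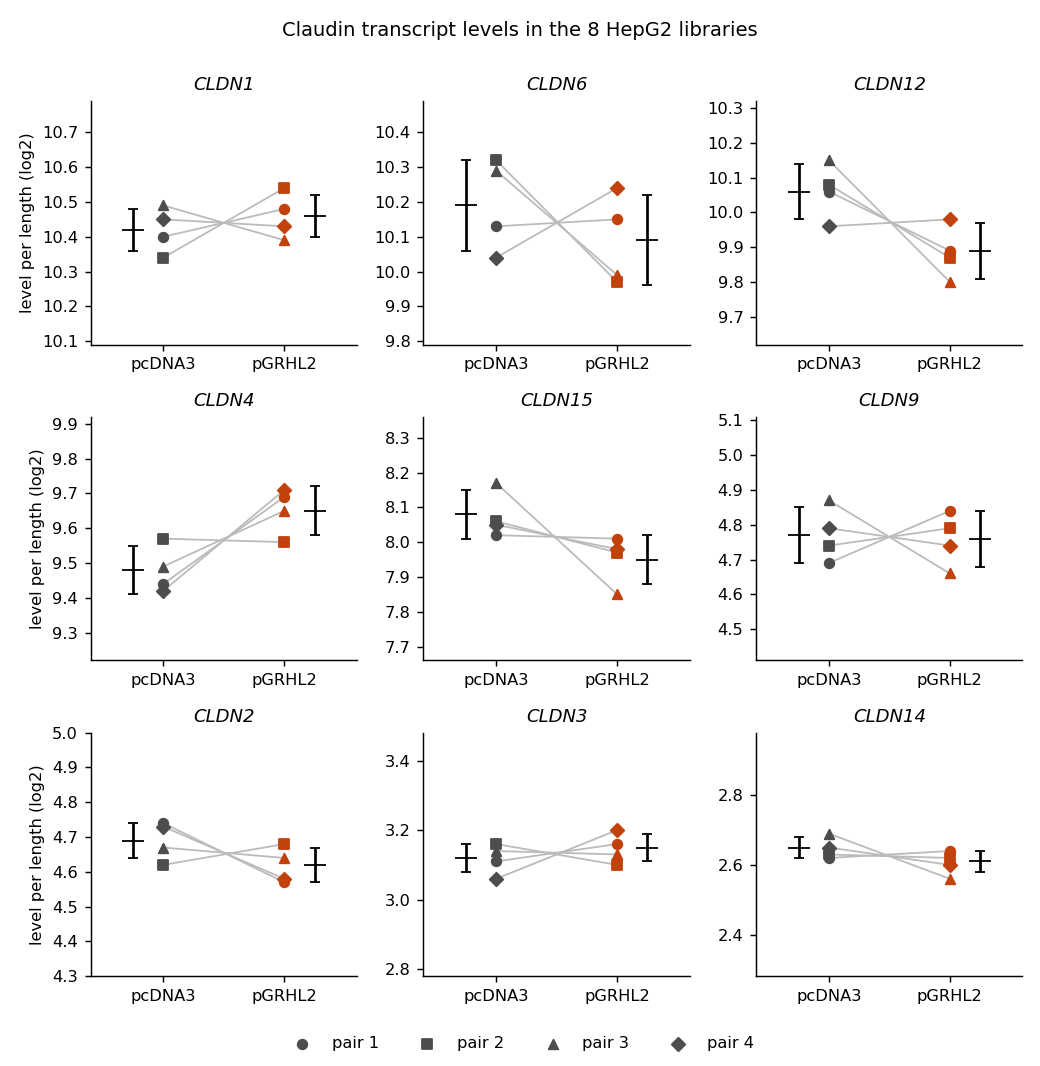
Levels of the 9 claudins (y axis, log2 per length, with a different range in each panel) in pcDNA3 and pGRHL2 libraries, with symbols and grey lines for pairs 1 to 4 and bars for the mean ± SD of 4 libraries. Lines cross at 1 point because the mean of each pair was equal, which also makes the SDs of the 2 groups equal. CLDN15 is the only panel in which the 2 groups do not overlap.

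CLDN4 had the largest positive difference of the 9 claudins. Its levels in pcDNA3 libraries 1 to 4 were 9.44, 9.57, 9.49 and 9.42, and in pGRHL2 libraries 1 to 4 they were 9.69, 9.56, 9.65 and 9.71. Pairs 1, 3 and 4 were higher with pGRHL2, pair 2 differed by -0.01, and the groups overlapped by pair 2 alone. The log2 FC was 0.17 ± 0.13 (SD over the pairs, n = 4), a 1.13-fold difference, and the limma 95% interval reached from 0.02 to 0.32 (adjusted p = 0.235 by limma). A two-sided exact test that flips the signs of the 4 pairs gave p = 0.25, and 0.125 is the smallest value that 4 pairs allow. Without the replicate block the limma adjusted p was 0.0258, which would call CLDN4 higher, along with 18.5% of all genes in either direction. That fit counts both libraries of a pair as independent although their mean was made equal, so its p is too small. The study selected CLDN4 partly for its induction upon GRHL2 ectopic expression, with these libraries among the data. Its direction here is therefore not independent evidence. Differential expression in the study came from DESeq2 on read counts, whereas the fit here used the deposited rlog-based values. The results for CLDN4 thus rest on different inputs, and the reason for their difference was not tested. Outside these libraries, the study shows GRHL2 ChIP-seq signal at CLDN4 in HepG2 cells. It also reports CLDN4 induction by RT-qPCR in HepG2 cells, HepaRG cells and mouse liver. CLDN4 is annotated at chromosome 7, 73799542 to 73832690, plus strand (hg38).

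CLDN12 had the largest negative difference. Its levels were 10.06, 10.08, 10.15 and 9.96 in pcDNA3 libraries 1 to 4 and 9.89, 9.87, 9.80 and 9.98 in pGRHL2 libraries 1 to 4. Pairs 1 to 3 were lower with pGRHL2 and pair 4 differed by 0.02, so that the groups overlapped by pair 4. The log2 FC was -0.18 ± 0.15 (SD over the pairs, n = 4), and the limma 95% interval reached from -0.33 to -0.02 (adjusted p = 0.255 by limma). The exact sign-flip test gave p = 0.25, and the fit without the replicate block gave a limma adjusted p of 0.0372. That fit again counts both libraries of a pair as independent. CLDN12 is annotated at chromosome 7, 90383721 to 90513402, plus strand, and 17.56% of its exon bases are also exon bases of other genes, among them PTTG1IP2. Because reads were counted without strand, reads over those bases cannot be assigned to either gene with certainty.

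CLDN15, which forms cation channels, was the only one of the 9 claudins whose groups did not overlap. Its levels were 8.02, 8.06, 8.17 and 8.05 with pcDNA3 and 8.01, 7.97, 7.85 and 7.98 with pGRHL2. It was thus lower with pGRHL2 in 4 of 4 pairs, a pattern that 10.5% of all genes showed in this direction and 24.0% in either. The log2 FC was -0.12 ± 0.13 (SD over the pairs, n = 4), and the limma 95% interval reached from -0.27 to 0.03 (adjusted p = 0.415 by limma). Pair 3 differed by -0.32 and the other pairs by -0.02 to -0.08, and without pair 3 the log2 FC was -0.0572. CLDN15 is annotated at chromosome 7, 101232092 to 101238820, minus strand.

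CLDN1 and CLDN6, which had the highest deposited levels, did not move in 1 direction. CLDN1 was at 10.40, 10.34, 10.49 and 10.45 with pcDNA3 and at 10.48, 10.54, 10.39 and 10.43 with pGRHL2, being higher in pairs 1 and 2 and lower in pairs 3 and 4. Its log2 FC was 0.04 ± 0.12 (SD over the pairs, n = 4), with an interval of -0.11 to 0.18 (adjusted p = 0.853 by limma). CLDN6 was at 10.13, 10.32, 10.29 and 10.04 with pcDNA3 and at 10.15, 9.97, 9.99 and 10.24 with pGRHL2. It was higher by 0.20 in pair 4 and lower by over 0.3 in pairs 2 and 3, which gave the widest spread of the 9 claudins. The log2 FC of CLDN6 was -0.11 ± 0.27 (SD over the pairs, n = 4), with an interval of -0.32 to 0.10 (adjusted p = 0.644 by limma). It was -0.029 without replicate 2, -0.0426 without replicate 3 and -0.2139 without replicate 4. CLDN1 lies on chromosome 3 from 190305707 to 190322446 and CLDN6 on chromosome 16 from 3014712 to 3020071, both on the minus strand. Of the 31-base words of the canonical CLDN6 transcript, 19.69% also occur in transcripts of other genes. Part of its reads may thus have been placed elsewhere or left out by the minimum alignment quality of 10.

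The 4 claudins with low levels also overlapped between the groups. CLDN2, which forms cation and water channels, lay between 4.62 and 4.74 with pcDNA3 and between 4.57 and 4.68 with pGRHL2. Its log2 FC was -0.07 ± 0.11 (SD over the pairs, n = 4), lower in 3 of 4 pairs (adjusted p = 0.506 by limma), and ranged from -0.116 without replicate 2 to -0.039 without replicate 1. CLDN3, a sealing claudin, lay between 3.06 and 3.16 with pcDNA3 and between 3.10 and 3.20 with pGRHL2. Its log2 FC was 0.03 ± 0.09 (adjusted p = 0.733 by limma). CLDN9, closely related to CLDN6, had a log2 FC of -0.02 ± 0.15 (adjusted p = 0.922 by limma). CLDN14 had a log2 FC of -0.04 ± 0.06 (adjusted p = 0.525 by limma), which was -0.0126 without replicate 3. CLDN2 shares 9.99% of its exon bases with other genes (RIPPLY1) and CLDN14 shares 7.05% with its antisense gene CLDN14-AS1.

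**Figure D3:**
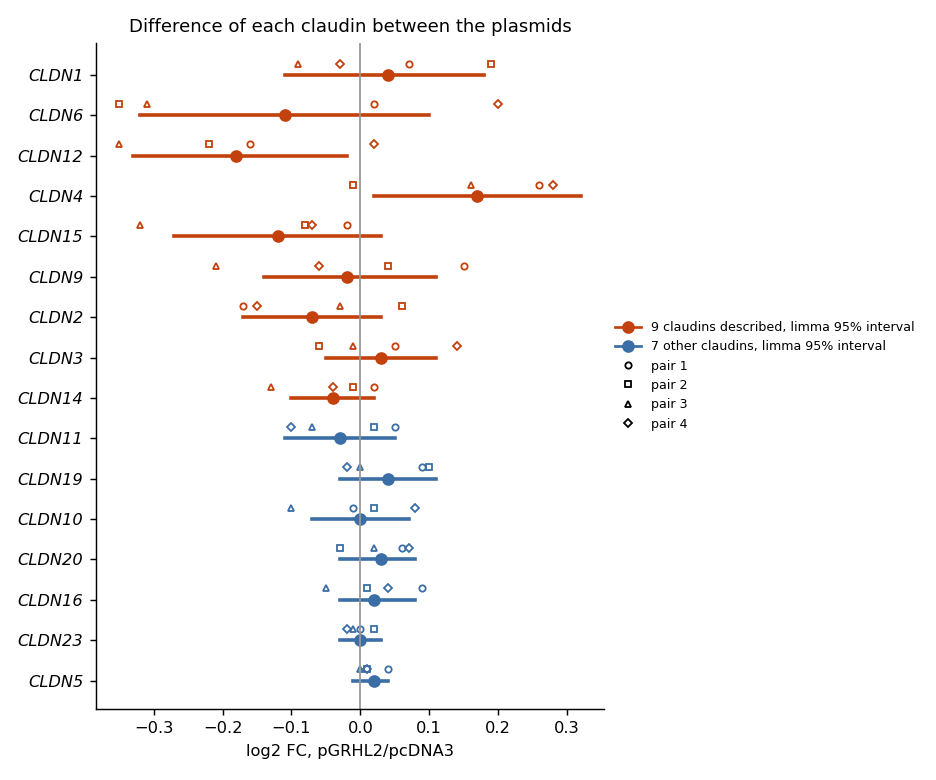
Log2 FC (x axis, pGRHL2/pcDNA3) of the 9 claudins described and of 7 other claudins, ordered by level within each set, with filled points for the mean of 4 pairs, bars for the limma 95% interval and open symbols for each pair. The interval lies above 0 for CLDN4 and below 0 for CLDN12, and the other 14 intervals include 0.

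The share of claudins that were higher differed between the pairs. In pair 1, 6 of the 9 claudins were higher with pGRHL2, and in pair 2 the number was 3. In pair 3, 1 claudin was higher (CLDN4) and 8 were lower, with a median of -0.13. In pair 4, 4 were higher and 5 were lower. The median size of the log2 FC over the 9 claudins was 0.071 against a median pair SD of 0.132, and for all genes these values were 0.04 and 0.085. Among genes with a mean level of at least 5 they were 0.06 and 0.117, and the 5 claudins of this range had 0.123 and 0.134.

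Claudin genes that lie next to each other were compared pair by pair, for 3 neighboring couples. CLDN3 and CLDN4 are separated by 29271 bases on chromosome 7. The log2 FC of CLDN4 exceeded that of CLDN3 in 4 of 4 pairs, by 0.14 ± 0.07, with an exact sign-flip p of 0.125, which is 0.375 after adjustment over the 3 couples. CLDN6 and CLDN9 are 206 bases apart on chromosome 16, and their log2 FC differed by -0.09 ± 0.27 (exact p = 0.625, adjusted 0.938). CLDN1 and CLDN16, a claudin of renal magnesium transport, are 94 bases apart on chromosome 3 and differed by 0.01 ± 0.12 (exact p = 1.0). None of the 3 differences passed the test, which cannot go below 0.125 with 4 pairs.

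The 7 other claudins of the table had low levels. CLDN5, CLDN10, CLDN11, CLDN16, CLDN19, CLDN20 and CLDN23 had mean levels of 0.08 to 4.02, below those of the 5 high claudins, and none was called. Their log2 FC ranged from -0.03 to 0.04. CLDN5, the claudin of endothelial barriers, was higher with pGRHL2 in 4 of 4 pairs, by 0.017 ± 0.017, a pattern that 13.4% of all genes showed in this direction.

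The claudins were set beside 34 of 36 listed genes of the tight junction that are not claudins. Of these, 1 was called higher and 0 were called lower by limma at an adjusted p under 0.05, as against 1.69% and 0.501% of all genes. At an unadjusted p under 0.05, 3 were higher and 4 were lower, where the shares over all genes were 9.17% and 6.78%. The median log2 FC of the list was -5.7e-05. The gene called was ILDR2, an angulin of tricellular contacts, with levels of 2.59, 2.47, 2.59 and 2.59 with pcDNA3 and of 2.80, 2.92, 2.81 and 2.81 with pGRHL2. Its log2 FC was 0.28 ± 0.11 (SD over the pairs, n = 4; adjusted p = 0.0124 by limma), higher in 4 of 4 pairs. The call was lost without replicate 1 (limma adjusted p 0.0524) and without replicate 3 (0.0565). The mean level of ILDR2 was 2.7, and calls at low levels were mostly upward. Of 6703 genes with a mean level under 5, 224 were called higher and 7 lower.

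Among the membrane proteins of the MARVEL group, MARVELD3 had a log2 FC of 0.25 ± 0.13, higher in 4 of 4 pairs (adjusted p = 0.0716 by limma). OCLN, encoding occludin, was at 5.36, 5.37, 5.40 and 5.14 with pcDNA3 and at 5.04, 5.03, 5.01 and 5.27 with pGRHL2, being lower in pairs 1 to 3 and higher in pair 4. The log2 FC of OCLN was -0.23 ± 0.24 (adjusted p = 0.207 by limma), which became 0.0269 with a log2 FC of -0.35 without replicate 4. F11R, encoding the adhesion molecule JAM-A, had a log2 FC of 0.18 ± 0.12, higher in 4 of 4 pairs (adjusted p = 0.209 by limma).

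The 11 scaffold genes, some of which link claudins to the actin cytoskeleton, held no called gene. TJP1, encoding ZO-1, varied most, with pair differences of -0.22, -0.11, 0.51 and -0.92 and a log2 FC of -0.19 ± 0.59 (limma adjusted p 0.685). The 7 polarity genes and the 6 regulators also held no called gene, and with 2.19% of all genes called, such counts in groups of this size do not set them apart. The regulator ARHGEF18, an exchange factor for RhoA, had a log2 FC of -0.19 ± 0.14, lower in 4 of 4 pairs (adjusted p = 0.198 by limma).

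**Figure D4:**
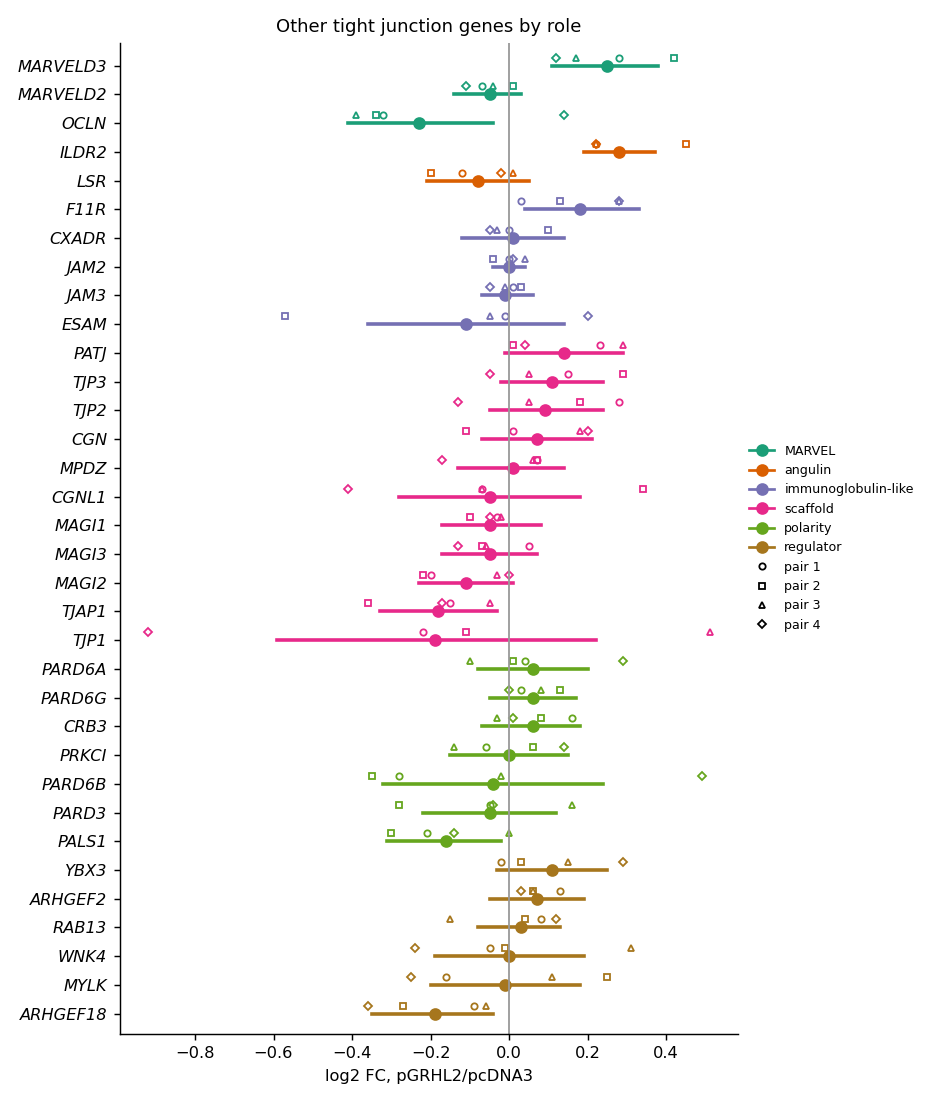
Log2 FC (x axis, pGRHL2/pcDNA3) of 34 tight junction genes other than claudins, colored by role, with filled points for the mean of 4 pairs, bars for the limma 95% interval and open symbols for each pair. ILDR2 (0.28) is the only gene called at an adjusted p under 0.05, and TJP1 has the widest spread of pairs (-0.92 to 0.51).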

How the data were processed

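RNA-seq was performed on 8 libraries of HepG2 cells, 4 with pGRHL2 and 4 with pcDNA3, grouped by the sample labels. Reads were aligned by the authors to hg38 using HISAT2 2.2.1, counted exon reads with HTSeq 0.9.1 in union mode without strand, removed genes with under 10 reads, applied the DESeq2 1.40.2 rlog transformation and divided by mean transcript length. These versions are those of the submitters' processing notes, and the methods of the study give others for HISAT2 and DESeq2. The deposited values are named as FPKM but lie on a log2 scale (3.71% were below 0). Among 2371 genes that hardly varied the slope of the level on log2 transcript length was -0.83. One stray character was removed from the table.

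Pair means were equal in 17561 of 17561 genes (largest spread 1.5e-13), a step the methods do not describe. Correlating deviations as a check of pairing is therefore void, and the pairing was taken from this structure and the shared replicate numbers. limma 3.58.1 (R 4.3.3; lmFit, eBayes with trend) was fitted to all genes with the replicate number as a block, leaving 3 residual degrees of freedom, with Benjamini-Hochberg adjustment and a threshold of 0.05. For single values, the signs of the 4 pair differences were flipped in an exact two-sided test.

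The claudins, the other lists and the rule for named genes (GRHL2, all claudins, and the called genes plus the 3 largest increases and 3 largest decreases of the tight junction list) were chosen with earlier results of these data known. Symbols matched GENCODE release 44 for 99.86% of genes. Alternatives were the fit without the block, leaving out each replicate, robust eBayes, eBayes without trend, arrayWeights, 2 scalings, a mean level of at least 5 and an adjusted p under 0.01. Removal of GC, length and level trends (natural splines with 5 degrees of freedom) and the canonical transcript length were added after seeing the data. Depth was unknown, so no counting error was computed.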

Additional observations from a re-analysis of the deposited data

Results flagged for a closer look

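Dixon's test for a sample far from the others was applied to the 4 pair differences of 23 genes (GRHL2, the 16 claudins and 6 named tight junction genes), where chance alone marks about 1 in 20. No claudin was marked. ILDR2 was marked for pair 2, in which the log2 difference (pGRHL2/pcDNA3) was 0.4492, while the other 3 pairs lay between 0.215 and 0.224. OCLN was marked for pair 4, in which the log2 difference was 0.1350, while the other 3 pairs lay between -0.387 and -0.317.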

How the results depend on the processing

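The 9 claudins gave 0 called genes in either direction under every alternative that kept the replicate block. Without the block, 1 claudin was called higher (CLDN4, limma adjusted p 0.0258) and 1 lower (CLDN12, 0.0372), the tight junction list gave 3 higher and 3 lower (gaining MARVELD3 at 0.00511 and F11R at 0.0174 as higher, and ARHGEF18 at 0.0207, TJAP1 at 0.021 and PALS1 at 0.0287 as lower), and all genes gave 1821 higher and 1427 lower. Because pair means were equal, the block took up no variation between libraries. Leaving it out only raised the residual degrees of freedom from 3 to 6, which counts both libraries of a pair as independent. The block changed no other claudin call. With it, the limma adjusted p ranged from 0.171 to 0.619 for CLDN4 and from 0.121 to 0.556 for CLDN12. Over all genes, 503 were higher and 221 lower with arrayWeights, 495 were higher with equal totals without GRHL2 (a shift of 0.013 in log2), 63 were higher at a mean level of at least 5, 77 were higher and 10 lower at an adjusted p under 0.01, 4 were higher and 2 lower by eBayes without trend, and 152 were higher with trends removed. Leaving out 1 replicate gave 79 to 156 genes higher and 8 to 68 lower, and 0 to 1 tight junction genes higher and 0 to 1 lower. The tight junction list gave 2 higher with arrayWeights and with equal totals, where MARVELD3 was gained (0.0337 and 0.0436), and 0 higher by eBayes without trend (ILDR2 0.11), at a mean level of at least 5 (ILDR2 not tested) and at an adjusted p under 0.01. The log2 FC reversed for CLDN1 without replicate 2 (-0.0159; leaving out 1 replicate, up to 0.0794), CLDN9 without replicate 3 (0.0443; down to -0.0736) and with arrayWeights (0.0221), CLDN3 without replicate 4 (-0.0062; up to 0.061) and TJP1 without replicate 4 (0.0602; down to -0.4183). Beyond what these settings change by construction (libraries, genes tested, residual degrees of freedom or a stricter threshold), the cause was not tested. Depth was unknown, and the rlog values understate differences of genes with few reads.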

Other observations

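Genes with claudin-like names that are not core members of the family were looked up after their values could be seen. CLDND1 had a mean level of 9.26 and a log2 FC of 0.06 ± 0.12 (SD over the pairs, n = 4; adjusted p = 0.712 by limma). CLDND2 had a mean level of 5.15 and a log2 FC of -0.04 ± 0.13 (adjusted p = 0.797 by limma). The antisense gene CLDN10-AS1 had a mean level of 5.10 and a log2 FC of 0.01 ± 0.17 (adjusted p = 0.971 by limma). CLDN14-AS1 had a mean level of 1.82 and a log2 FC of -0.03 ± 0.026, lower in 4 of 4 pairs (adjusted p = 0.412 by limma). Since counting was unstranded, reads of an antisense gene and of its partner cannot be told apart where their exons overlap.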
